A study of Homo sapiens with 4 samples.

Results

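The 41 genes described here encode proteins of homologous recombination and of the Fanconi anaemia pathway, with the checkpoint kinases and nucleases that work beside them. They were chosen by gene symbol from a deposited table of 25369 genes, and all 41 were found and had enough reads to be tested. Homologous recombination repairs a broken chromosome by copying the intact sister chromatid, and so works mainly in S phase and G2. BRCA1 and BARD1 promote resection of the broken end, and BRCA2, held to BRCA1 by PALB2, prepares the exposed strand for pairing with the sister. In the Fanconi pathway, a core complex attaches ubiquitin to FANCD2 and FANCI at crosslinked DNA, which calls in the nucleases that unhook the crosslink.

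The RNA came from H226, an established cell line of lung squamous cell carcinoma. In the shp63 group the cells carried an inducible hairpin against p63, a transcription factor of basal epithelium, and in the shControl group they carried an inducible control hairpin, which the column names call non-targeting. All cultures, controls included, were kept for 6 days in 1 µg/mL doxycycline, which switches the hairpin on, and each group had 2 cultures that the submitters call independent biological replicates. The labels name 1 construct per group, so an effect of the hairpin sequence and an effect of lower p63 cannot be told apart.

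The libraries held 51926832 to 53924761 counted reads. TP63, the target of the hairpin, had 1596 and 1530 reads in the shp63 libraries, against 7533 and 7364 reads in the shControl libraries and was lower in both libraries labelled shp63. Of the 8 squamous markers 7 were called lower and 1, KRT6A, higher (18.5 CPM in shp63 and 14.01 CPM in shControl). KRT5 averaged 148 CPM (normalised read count, scaled to library size with TMM factors) in shp63 and 757 CPM in shControl, KRT14 averaged 1.43 CPM in shp63 and 4.35 CPM in shControl, and SOX2 had only 1 and 3 reads in shp63, against 14 and 11 reads in shControl. The 5 epithelial markers summed to 6466 and 6728 CPM in shp63, against 3103 and 3119 CPM in shControl. Of 8 leukocyte markers 4 had enough reads to be tested, and the list summed to 74.6 and 78.7 CPM in shp63, against 12.9 and 14.4 CPM in shControl. CD14 and CD68 made up most of that sum, while the defining marker PTPRC averaged 0.137 CPM in shp63 and 0.0913 CPM in shControl. Of the 4 tested markers 3 (CD14, CD68 and LYZ) were called higher. The other, ITGAM, was called lower (0.274 CPM in shp63 and 0.695 CPM in shControl). Endothelial markers summed to 189.9 to 191 CPM in shp63, against 59.9 to 65.0 CPM in shControl and came mostly from CDH5, which was called higher, while VWF was called lower (1.30 CPM in shp63 and 4.66 CPM in shControl). Mesothelial markers summed to 630 to 636 CPM in shp63, against 334 to 361 CPM in shControl, from MSLN and UPK3B, while CALB2, WT1 and LRRN4 had too few reads to be tested. Fibroblast markers summed to 67.1 to 75.2 CPM in shp63, against 97.2 to 102 CPM in shControl. Nearly all of that sum came from COL1A1 (70.7 CPM in shp63 and 98.7 CPM in shControl), while DCN and LUM were at or near 0 in every library. The part of these marker genes in the results was not tested.

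The repair genes were lower in shp63 almost throughout. Of the 41 genes 39 fell, 1 (FANCF) rose and 1 (NBN) did not pass the test, which was edgeR's quasi-likelihood test with Benjamini-Hochberg adjustment over all 14901 tested genes at an adjusted p under 0.05 (given below as edgeR adjusted p). Among all tested genes 74% were called in either direction, 37.1% lower and 36.9% higher. With library totals as the only scaling, 6591 of all tested genes were called lower and 4658 higher, and of the 41 genes 40 were lower and 0 higher. The median log2 fold change of the 41 genes was -0.93, beside -0.01 over all tested genes. Of the 41 genes 29 were called lower in a test against a change of 1.5-fold, beside 10% of all tested genes, and none was called higher, beside 12.7%. The loss was at least 1 on the log2 scale for 17 of them, beside 6.56% of all tested genes. The shp63 and shControl libraries were fully apart for 40 of the 41 genes, beside 86.4% of all tested genes, with NBN the exception. Together the 41 genes took 0.125% and 0.128% of the counted reads in the shp63 libraries, against 0.222% and 0.228% in the shControl libraries. With 2 cultures in each group an exact two-sided permutation test of 1 gene cannot give a p under 0.333, so every call rests on the spread that edgeR shares across genes. In such bulk RNA, fewer cells that express a gene and less RNA per cell cannot be told apart.

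**Figure D1:**
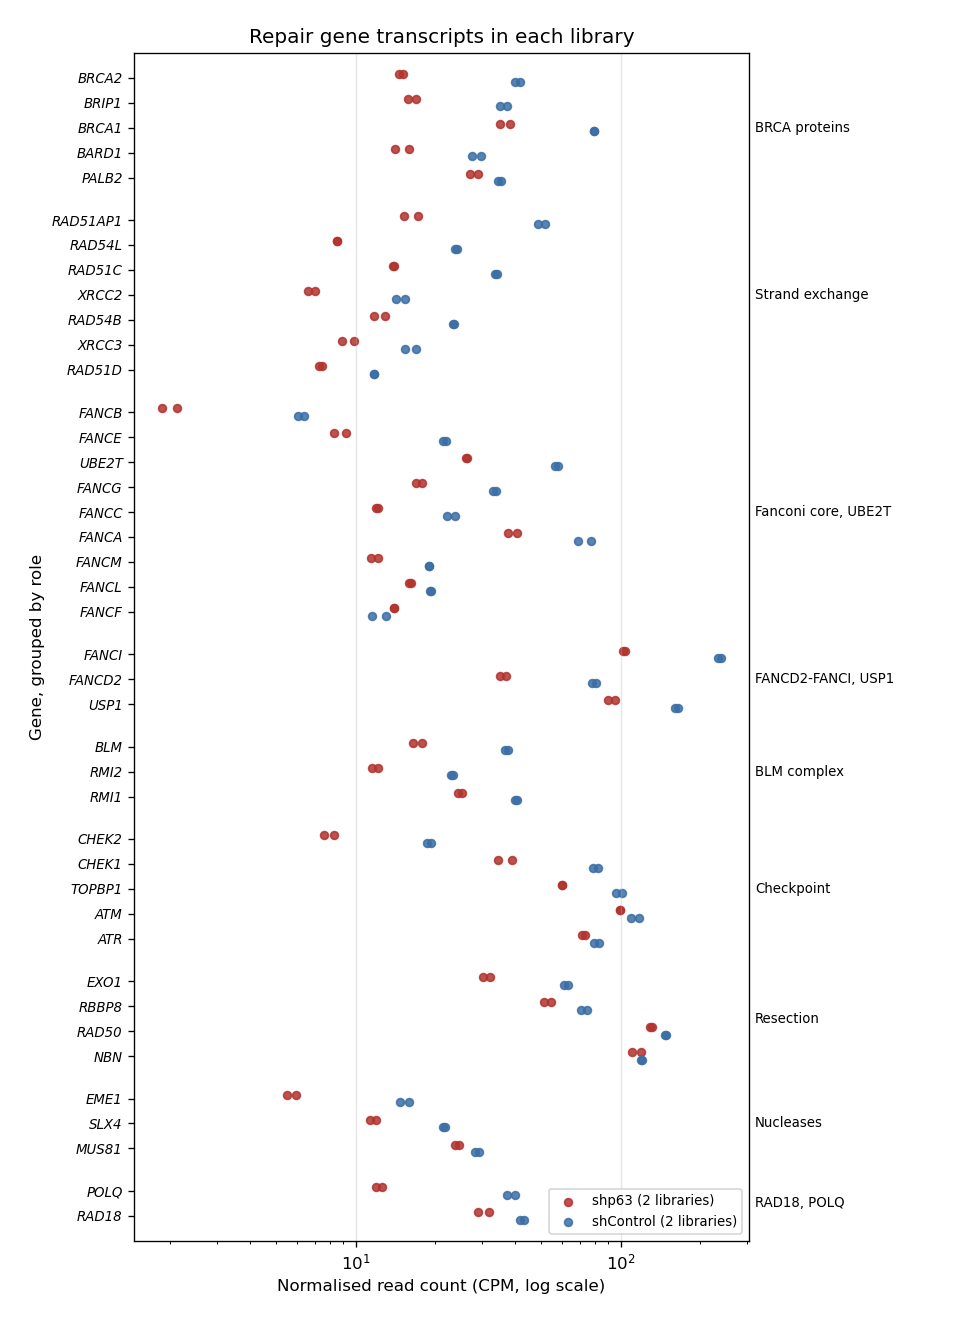
Normalised read count of each of the 41 repair genes in every library (horizontal log axis, CPM), with shp63 libraries in red above shControl libraries in blue and genes grouped by the role of their product. The red points lie left of the blue points for 39 genes, overlap them for NBN and lie right of them for FANCF.

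The 3 largest falls were those of POLQ, FANCB and RAD51AP1. POLQ encodes DNA polymerase theta, which joins broken ends through short matching stretches when recombination fails. It had 12.6 and 11.9 CPM in the shp63 libraries, against 37.4 and 39.8 CPM in the shControl libraries, 3.15-fold less (log2 fold change -1.65, SE 0.054, edgeR adjusted p = 2.86e-17). FANCB, an X-linked subunit of the Fanconi core complex, had 1.86 and 2.11 CPM in shp63, against 6.04 and 6.40 CPM in shControl. This 3.13-fold fall rested on few reads, 97 and 106 in shp63 and 335 and 344 in shControl, and had the widest error of the 41 genes (log2 fold change -1.64, SE 0.12, edgeR adjusted p = 2.68e-11). RAD51AP1, which promotes invasion of the intact duplex, had 15.3 and 17.3 CPM in shp63, against 48.9 and 51.8 CPM in shControl (log2 fold change -1.63, SE 0.052, edgeR adjusted p = 6.19e-17). For all 3 genes both shp63 libraries lay far below both shControl libraries.

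The other end of the range was FANCF, the adaptor that links FANCC and FANCE to the other core subunits. FANCF had 14.01 and 13.96 CPM in the shp63 libraries, against 11.5 and 13.0 CPM in the shControl libraries, so that the groups lay close but apart (log2 fold change 0.19, SE 0.068, edgeR adjusted p = 0.0151). That rise was not called by DESeq2 (adjusted p = 0.125), with library totals as the only scaling (edgeR adjusted p = 0.181), or without shControl replicate 1 (log2 fold change 0.10, edgeR adjusted p = 0.271). FANCF is a gene of 1 exon at chromosome 11 from 22644079 to 22647369 (GRCh37). POLQ lies at chromosome 3 from 121150278 to 121264835, FANCB at chromosome X from 14708510 to 14891377 and RAD51AP1 at chromosome 12 from 4647964 to 4669213, all on GRCh37.

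The promoters of these 4 genes and of FANCD2 and EXO1 are given below. FANCD2 and EXO1 were added, after their values were seen, because their windows hold letters of the E2F type. Those letters are therefore present by choice and set no contrast between genes that fell and FANCF. Each runs 5′ to 3′ on the gene's strand from 250 bases before to 50 bases after the start of the gene in RefSeq (GRCh38.p14), and each matched GRCh37 at exactly 1 place. Those places are chr3:121264786-121265085 (minus strand) for POLQ, chrX:14891142-14891441 (minus) for FANCB, chr12:4647806-4648105 (plus) for RAD51AP1, chr3:10067871-10068170 (plus) for FANCD2, chr1:242011256-242011555 (plus) for EXO1 and chr11:22647320-22647619 (minus) for FANCF. Capitals mark any of 3 kinds of letters on either strand. These are the E2F-type words TTTCGCGC, TTTGGCGC, TTTCCCGC and TTTGCCGC, the CHR word TTTGAA known from cell cycle promoters, and CCAAT, the word bound by NF-Y.
POLQ promoter: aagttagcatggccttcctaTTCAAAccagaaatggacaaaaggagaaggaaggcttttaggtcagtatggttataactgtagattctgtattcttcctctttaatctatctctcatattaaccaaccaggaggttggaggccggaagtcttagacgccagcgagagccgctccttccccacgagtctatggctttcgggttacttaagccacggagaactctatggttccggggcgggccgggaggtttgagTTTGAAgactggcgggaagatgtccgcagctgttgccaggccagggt
FANCB promoter: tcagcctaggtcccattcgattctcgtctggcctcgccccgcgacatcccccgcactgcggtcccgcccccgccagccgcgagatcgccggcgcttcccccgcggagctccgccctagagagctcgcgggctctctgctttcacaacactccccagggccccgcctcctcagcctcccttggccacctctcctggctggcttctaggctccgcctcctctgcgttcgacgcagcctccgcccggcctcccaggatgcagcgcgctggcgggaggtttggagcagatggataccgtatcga
RAD51AP1 promoter: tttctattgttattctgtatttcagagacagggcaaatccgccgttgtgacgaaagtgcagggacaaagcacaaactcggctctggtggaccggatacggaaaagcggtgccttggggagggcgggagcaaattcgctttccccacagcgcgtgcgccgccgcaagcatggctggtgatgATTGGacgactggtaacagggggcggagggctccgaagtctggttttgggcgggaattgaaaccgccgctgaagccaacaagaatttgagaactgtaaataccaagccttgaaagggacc
FANCD2 promoter: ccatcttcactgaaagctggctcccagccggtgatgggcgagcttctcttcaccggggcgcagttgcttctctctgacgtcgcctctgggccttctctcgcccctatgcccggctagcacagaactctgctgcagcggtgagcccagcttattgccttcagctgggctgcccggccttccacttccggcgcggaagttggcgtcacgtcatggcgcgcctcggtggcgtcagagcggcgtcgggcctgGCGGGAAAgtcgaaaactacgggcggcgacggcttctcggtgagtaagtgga
EXO1 promoter: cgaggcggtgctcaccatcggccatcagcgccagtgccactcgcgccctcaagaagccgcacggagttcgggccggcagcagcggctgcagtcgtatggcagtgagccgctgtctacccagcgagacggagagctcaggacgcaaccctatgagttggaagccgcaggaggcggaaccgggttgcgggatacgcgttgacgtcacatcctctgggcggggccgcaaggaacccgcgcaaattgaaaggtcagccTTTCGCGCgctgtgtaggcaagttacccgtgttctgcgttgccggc
FANCF promoter: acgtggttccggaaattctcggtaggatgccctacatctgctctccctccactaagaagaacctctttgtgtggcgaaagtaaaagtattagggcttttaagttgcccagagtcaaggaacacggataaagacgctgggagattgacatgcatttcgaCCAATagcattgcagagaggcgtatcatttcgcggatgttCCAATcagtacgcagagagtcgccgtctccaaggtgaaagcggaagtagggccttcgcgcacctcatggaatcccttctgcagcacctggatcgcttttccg

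POLQ holds TTTGAA at offset 3 after its start and again, on the other strand, at offset -230. FANCD2 holds the reverse complement of TTTCCCGC at offset -2 and EXO1 holds TTTCGCGC at offset 4, both close to the RefSeq start. GENCODE places the start of both genes, and those of FANCB and RAD51AP1, further upstream. FANCF holds CCAAT at offsets -92 and -52, and RAD51AP1 holds it on the other strand at offset -70. The RAD51AP1 word lies downstream of the GENCODE start of that gene. None of the marked words is in the FANCB window. A promoter was at hand for 37 of the 41 genes (not for RAD54B, FANCI, RMI2 and NBN). An E2F-type word was in 6 of the 37 (16.2%), namely XRCC2, FANCA, FANCC, FANCD2, TOPBP1 and EXO1, beside 3.31% of 35116 promoters of the same length. TTTGAA was in 13.5% of the 37 and 15.2% of all promoters, and CCAAT in 43.2% and 34.6%. The p53-family half-site, the word that p53 and its relatives bind in pairs, was in 1 of the 37 (BLM, 2.70%), beside 6.63% of all promoters. The background took every promoter of this length, from tested genes or not, while each member gave only its first listed promoter. The shares therefore come from unlike sets, and these are matches of letters only.

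The genes of the BRCA proteins all fell, beside 37.1% of all tested genes, but not equally. BRCA2 had 14.5 and 15.1 CPM in the shp63 libraries, against 40.1 and 41.6 CPM in the shControl libraries, which is 2.76-fold less (log2 fold change -1.46, SE 0.049, edgeR adjusted p = 4.48e-17). BRCA1 had 35.02 and 38.3 CPM in shp63, against 79.6 and 79.7 CPM in shControl (log2 fold change -1.12, SE 0.047, edgeR adjusted p = 2.21e-15). For both genes the 2 groups were far apart and the replicates close. BRIP1, a helicase that binds BRCA1, fell 2.23-fold and BARD1, the obligate partner of BRCA1, fell 1.90-fold. PALB2, the bridge between BRCA1 and BRCA2, had 27.0 and 28.9 CPM in shp63, against 34.6 and 35.5 CPM in shControl. Its 1.25-fold fall was the smallest of the 5 genes (log2 fold change -0.33, SE 0.046, edgeR adjusted p = 1.25e-06), and the test against 1.5-fold did not call it. BRCA2 lies at chromosome 13 from 32889223 to 32974405, BRCA1 at chromosome 17 from 41196312 to 41322262 and PALB2 at chromosome 16 from 23614481 to 23652642 (GRCh37).

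All 7 genes of strand exchange factors fell, 6 of them beyond 1.5-fold, beside 37.1% and 10% of all tested genes. RAD54L, a motor protein that helps DNA strands pair, had 8.53 and 8.48 CPM in shp63, against 24.2 and 23.6 CPM in shControl (log2 fold change -1.49, SE 0.061, edgeR adjusted p = 1.41e-15). Its relative RAD54B fell less, 1.90-fold. RAD51C, the paralog found in both paralog complexes, had 13.99 and 13.8 CPM in shp63, against 33.5 and 34.2 CPM in shControl (log2 fold change -1.28, SE 0.052, edgeR adjusted p = 1.00e-15). The paralogs XRCC2 and XRCC3 fell 2.18-fold and 1.71-fold. RAD51D, which sits beside XRCC2 in its complex, had the smallest fall, with 7.46 and 7.28 CPM in shp63, against 11.7 CPM in both shControl libraries (log2 fold change -0.67, SE 0.073, edgeR adjusted p = 3.26e-08). The same-strand exons of a readthrough gene cover 4.24% of the RAD51D transcript in GENCODE, so its count could depend on whether the authors' annotation held that gene.

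In the Fanconi core complex and its ubiquitin-conjugating enzyme UBE2T 8 of 9 genes fell, beside 37.1% of all tested genes. UBE2T had 26.3 and 26.05 CPM in shp63, against 56.8 and 57.9 CPM in shControl, 2.19-fold less. FANCE, which contacts FANCD2, had 8.27 and 9.17 CPM in shp63, against 21.9 and 21.4 CPM in shControl (log2 fold change -1.31, SE 0.065, edgeR adjusted p = 4.52e-14). The shp63 libraries were below the shControl libraries in each of these genes. The core subunit genes FANCG, FANCC and FANCA fell 1.93-fold, 1.90-fold and 1.87-fold (another same-strand gene in GENCODE covers 7.16% of the FANCG transcript). FANCM, the DNA motor that anchors the complex on chromatin, fell 1.60-fold, but the test against 1.5-fold did not call it. FANCL, the ubiquitin ligase subunit, fell 1.19-fold, at 16.0 and 16.2 CPM in shp63 and 19.2 and 19.1 CPM in shControl (log2 fold change -0.25, SE 0.056, edgeR adjusted p = 0.000342). Part of this group could not be told from neighbouring genes if strand was ignored in counting, since opposite-strand exons of VRK2 cover 27.3% of the FANCL transcript and those of ZNF276 cover 24.4% of the FANCA transcript. VRK2 averaged 30.7 CPM in shp63 and 35.5 CPM in shControl, and ZNF276 averaged 40.9 CPM in shp63 and 35.5 CPM in shControl. Opposite-strand exons overlap 10 of the 41 genes in GENCODE. The others include RAD54L (18.4% of its transcript), CHEK1 (18.2%), EME1 (10.6%), FANCI (9.11%) and BLM (8.45%).

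The substrates of the core complex fell together. FANCI had 102 and 104 CPM in shp63, against 233 and 239 CPM in shControl, and had the smallest edgeR adjusted p of the 41 genes (log2 fold change -1.20, SE 0.030, edgeR adjusted p = 2.34e-19). FANCD2 had 34.9 and 36.9 CPM in shp63, against 77.7 and 81.1 CPM in shControl (log2 fold change -1.14, SE 0.046, edgeR adjusted p = 9.55e-16). USP1, the enzyme that takes the ubiquitin off again, fell less, with 89.4 and 95.6 CPM in shp63, against 161 and 165 CPM in shControl (log2 fold change -0.82, SE 0.036, edgeR adjusted p = 5.00e-15). FANCI lies at chromosome 15 from 89787176 to 89860492 and FANCD2 at chromosome 3 from 10068054 to 10143616 (GRCh37).

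**Figure D2:**
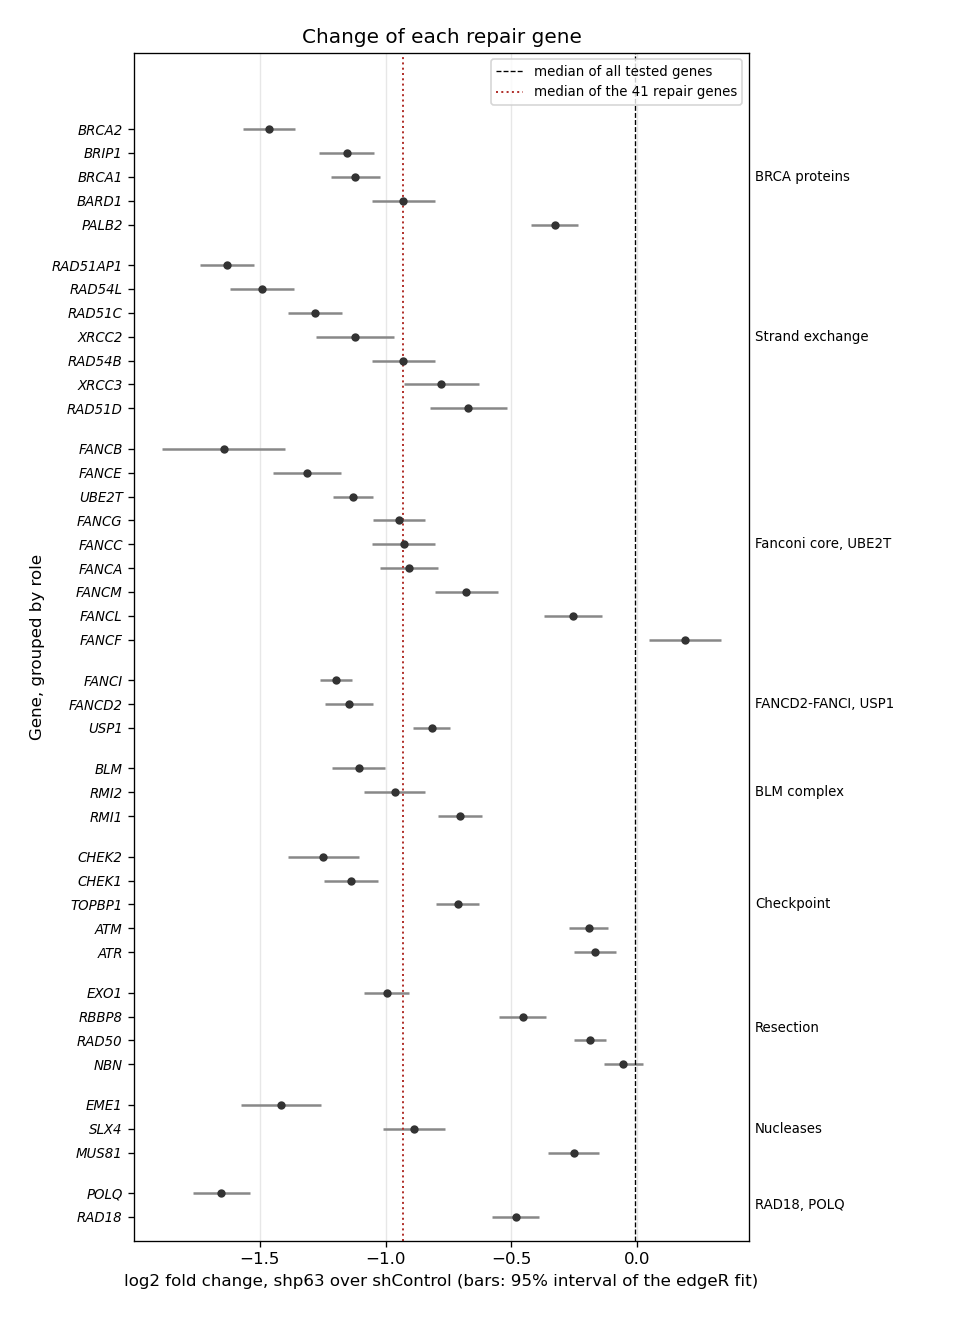
log2 fold change of each of the 41 repair genes, shp63 over shControl, with bars for the 95% interval of the edgeR fit on 2 libraries per group and genes grouped by role. Points run from -1.65 (POLQ) to 0.19 (FANCF) around a median of -0.93 (dotted line), with the median of all tested genes at -0.01 (dashed line).

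Among the checkpoint genes all 5 fell, beside 37.1% of all tested genes. The effector kinases CHEK2 and CHEK1 fell 2.37-fold and 2.20-fold and the apical kinases ATM and ATR 1.14-fold and 1.12-fold. CHEK2, the kinase that ATM activates, had 8.30 and 7.60 CPM in shp63, against 18.5 and 19.3 CPM in shControl (log2 fold change -1.25, SE 0.068, edgeR adjusted p = 2.16e-13). CHEK1, the kinase that ATR activates, had 34.3 and 38.9 CPM in shp63, against 78.8 and 82.2 CPM in shControl (log2 fold change -1.14, SE 0.052, edgeR adjusted p = 3.06e-14). TOPBP1, which switches ATR on, fell 1.64-fold. ATM, the kinase of double-strand breaks, had 99.5 and 99.8 CPM in shp63, against 117.6 and 109.9 CPM in shControl (log2 fold change -0.19, SE 0.038, edgeR adjusted p = 0.000104). ATR, the kinase of stalled forks, had 73.5 and 71.3 CPM in shp63, against 83.0 and 79.5 CPM in shControl (log2 fold change -0.17, SE 0.041, edgeR adjusted p = 0.000927). Both groups of libraries still lay apart for ATM and ATR, at 87.6% and 89.1% of the shControl level.

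Of the 4 end resection genes 3 fell, beside 37.1% of all tested genes. EXO1, the exonuclease of long-range resection, had 30.3 and 32.1 CPM in shp63, against 60.9 and 63.5 CPM in shControl (log2 fold change -0.996, SE 0.043, edgeR adjusted p = 3.38e-15). RBBP8, which encodes the resection starter CtIP, fell 1.37-fold and RAD50, the coiled-coil subunit of the MRE11 complex, fell 1.14-fold. NBN, the subunit of that complex that recruits ATM, had 111 and 119.6 CPM in shp63, against 120.2 and 119 CPM in shControl. The NBN groups overlapped and the change did not pass the test (log2 fold change -0.05, 95% interval -0.13 to 0.02, edgeR adjusted p = 0.192). Leaving out shp63 replicate 2, NBN was called lower (log2 fold change -0.11, edgeR adjusted p = 0.0048), and with library totals as the only scaling it was too (log2 fold change -0.14, edgeR adjusted p = 0.00134). Leaving out shp63 replicate 1, its sign turned (log2 fold change 0.0012, edgeR adjusted p = 0.981). RAD50 shares 91.0% of its transcript with a same-strand readthrough gene in GENCODE, so its count depends on whether the authors' annotation held that gene.

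The remaining genes act on branched DNA or on stalled forks. EME1, the partner that MUS81 needs to cut branched DNA, had 5.94 and 5.50 CPM in shp63, against 14.7 and 15.9 CPM in shControl (log2 fold change -1.42, SE 0.077, edgeR adjusted p = 2.35e-13). MUS81 itself had 24.6 and 23.8 CPM in shp63, against 28.3 and 29.3 CPM in shControl (log2 fold change -0.25, SE 0.048, edgeR adjusted p = 7.44e-05). SLX4, the scaffold that gathers nucleases at crosslinks, fell 1.85-fold. BLM, the helicase that dissolves joined chromatids, had 16.5 and 17.8 CPM in shp63, against 36.5 and 37.5 CPM in shControl (log2 fold change -1.11, SE 0.051, edgeR adjusted p = 1.02e-14). Its partners RMI2 and RMI1 fell 1.95-fold and 1.63-fold, with RMI1 at 24.4 and 25.2 CPM in shp63 and 40.6 and 40.1 CPM in shControl (edgeR adjusted p = 1.53e-12). RAD18, the ubiquitin ligase of damage bypass, fell 1.40-fold, to 28.9 and 32.0 CPM in shp63, against 41.8 and 43.2 CPM in shControl (edgeR adjusted p = 2.59e-09).

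Pairs of genes whose products form a complex, act in turn or are relatives did not all keep the same proportions. The number of reads of one gene over those of the other in the same library does not depend on library scaling, and 16 such pairs were compared, chosen after the values above were seen and described with no test. The groups did not overlap for 15 of the 16 pairs, a count not read as a result, since single genes did not overlap in 86.4% of all tested genes. Which gene of a pair is on top was a free choice. The sign of a change follows from that choice, so only its size is read. Each ratio change restates the changes of its genes given above and adds no further evidence. BRCA2 had 0.538 and 0.521 reads per PALB2 read in shp63, against 1.16 and 1.17 in shControl (log2 change of the ratio -1.14, SE 0.067). EME1 had 0.242 and 0.231 reads per MUS81 read in shp63, against 0.518 and 0.543 in shControl (log2 change of the ratio -1.17, SE 0.091). In both pairs the shp63 libraries lay below the shControl libraries and the replicates were close. The largest change was that of FANCB to FANCL, at 0.117 and 0.131 in shp63, against 0.315 and 0.335 in shControl (log2 change of the ratio -1.39, SE 0.13). The ratio of CHEK2 to ATM was 0.0835 and 0.0761 in shp63, against 0.157 and 0.175 in shControl (log2 change of the ratio -1.06, SE 0.077). The ratio of CHEK1 to ATR was 0.467 and 0.546 in shp63, against 0.949 and 1.03 in shControl, and that of UBE2T to FANCL was 1.65 and 1.61 in shp63, against 2.95 and 3.03 in shControl. Other pairs changed less. FANCD2 had 0.343 and 0.355 reads per FANCI read in shp63, against 0.333 and 0.339 in shControl (log2 change of the ratio 0.05, SE 0.055), a change within its error although the libraries of the groups lay apart. The ratio of FANCA to FANCG was 2.40 and 2.11 in shp63, against 2.09 and 2.29 in shControl, and the groups overlapped. BRCA1 had 2.48 and 2.41 reads per BARD1 read in shp63, against 2.90 and 2.68 in shControl. That change was larger than its error (log2 change of the ratio -0.19, SE 0.077), and the groups lay apart.

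**Figure D3:**
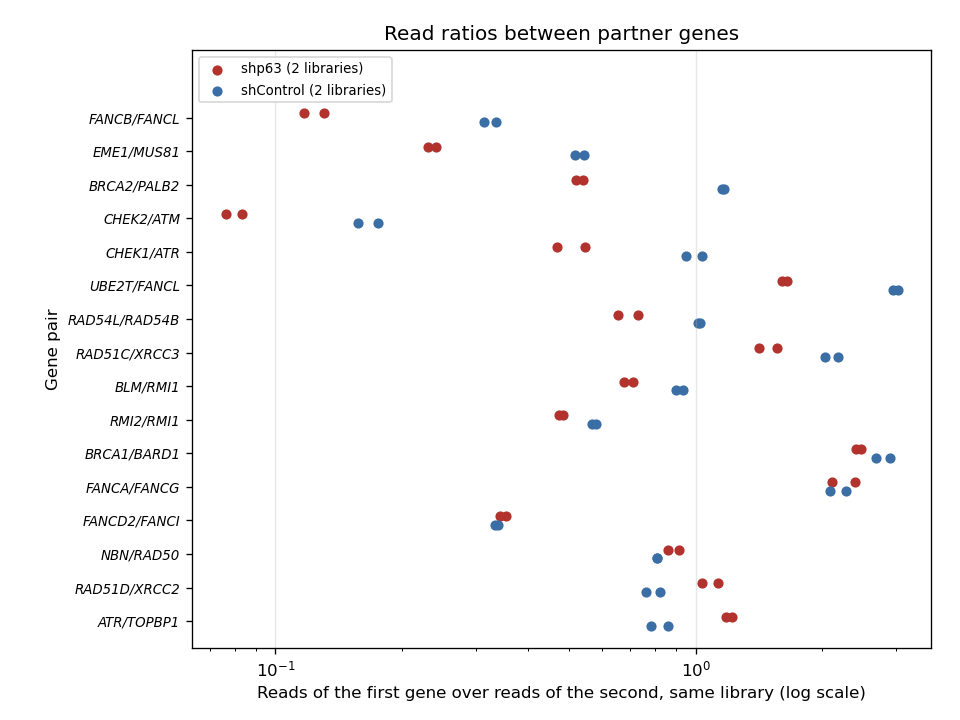
Reads of one gene over reads of its partner in the same library (horizontal log axis) for 16 pairs, with shp63 libraries in red above shControl libraries in blue. The ratio changed most for FANCB over FANCL, EME1 over MUS81, BRCA2 over PALB2 and CHEK2 over ATM. The groups overlap for FANCA over FANCG.

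Levels between genes were compared per length, as mean CPM per kilobase of the canonical GENCODE transcript, which may not be the isoform these cells make. On that scale the highest levels in shp63 were those of UBE2T (29.8 ± 0.232), USP1 (25.7 ± 1.203), NBN (24.9 ± 1.35) and FANCI (21.7 ± 0.356), against 65.3 ± 0.913 or less in shControl, where the order was UBE2T, FANCI, USP1 and NBN (SD, n = 2 each). In shp63 USP1 and NBN lay within the spread of each other. The lowest levels per kilobase were those of FANCB, at 0.659 ± 0.0585 in shp63 and 2.06 ± 0.0838 in shControl, and of RAD51D, at 0.739 ± 0.0127 in shp63 and 1.18 ± 0.00152 in shControl. The place of RAD51D rests on a canonical transcript of 9966 bases. Before division by length it averaged 7.37 CPM in shp63 and 11.7 CPM in shControl, above FANCB at 1.99 and 6.22 CPM. RAD51AP1 stood at rank 15 in shp63 and rank 5 in shControl, and ATR at rank 11 in shp63 and rank 21 in shControl. The level of FANCF per kilobase stood at rank 25 in shp63 and rank 35 in shControl.

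The rest of recombination and crosslink repair was also mostly lower in shp63, with a smaller median. Of 49 further genes of these pathways 37 fell, 6 rose and 6 did not pass the test, with a median log2 fold change of -0.52. Among all tested genes 37.1% were called lower and 36.9% higher. PARPBP, an inhibitor of recombination, and GEN1, a nuclease that cuts Holliday junctions, had log2 fold changes of -1.34 and -0.97. Among the genes that rose were BRE, a subunit of the BRCA1-A complex, and ZSWIM7, a partner of SWSAP1 in recombination, with log2 fold changes of 0.23 and 0.39. Of 15 further replication checkpoint genes 14 fell (median -0.55), among them H2AFX, the gene of the damage mark histone, which fell by 1.12 on the log2 scale, and MDC1, its reader, which fell by 1.19.

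Genes of other repair routes were also called lower more often than the 37.1% of all tested genes, with smaller medians. Among all tested genes 36.9% were called higher. Of 17 non-homologous end joining genes 10 were called lower and 2 higher, at a median log2 change of -0.36. XRCC6, the Ku70 gene, fell by 0.59 on the log2 scale, while POLM, a gap-filling polymerase of this route, rose by 0.55. Of 7 mismatch repair genes 6 fell (median -0.32). Of 18 base excision genes 12 fell and 2 rose (median -0.40). NEIL3, a glycosylase known to unhook some crosslinks, had a log2 fold change of -1.75, and PARP1, the sensor of strand breaks, one of -1.001. Of 22 nucleotide excision genes 15 fell and 2 rose (median -0.25), and DDB2, a damage sensor and known p53 target, had the lowest log2 fold change of these (-1.21). Of 11 translesion genes 8 fell and 2 rose (median -0.19), with POLH, a bypass polymerase and known p53 target, at 47.4 CPM in shp63 and 120.1 CPM in shControl. Fewer genes passed the test against 1.5-fold, which called 10% of all tested genes lower. It called lower 2 end joining, 1 mismatch, 3 base excision, 2 nucleotide excision and 1 translesion gene, and none higher. The lists were compared by their counts and medians only, with no test between them.

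Cell cycle genes moved in the same libraries, where 37.1% of all tested genes were called lower and 36.9% higher. Of 20 S phase genes 18 fell, 1 (CCNE1) rose and 1 (E2F1) did not pass the test, and their median change was -0.85 on the log2 scale, near the -0.93 of the 41 repair genes. Their summed level was 1138 and 1185 CPM in shp63, against 2108 and 2180 CPM in shControl. All 10 mitosis genes fell, with a median of -2.12 and a range of -2.38 to -1.32. None of the 41 repair genes fell as far as that median, and 6 (POLQ, FANCB, RAD51AP1, RAD54L, BRCA2 and EME1) reached into that range. The summed level of the mitosis genes was 706 and 738 CPM in shp63, against 3037 and 2967 CPM in shControl. The part of these cell cycle differences in the repair gene results was not tested.

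**Figure D4:**
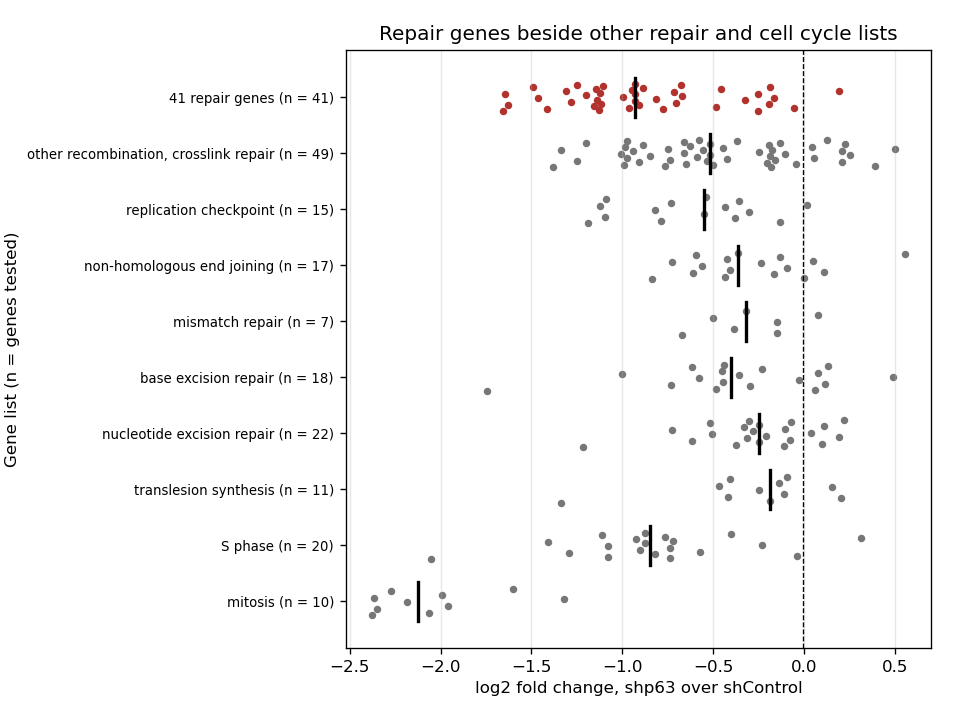
log2 fold change, shp63 over shControl, of each gene (points) in the 41 repair genes and in 9 other lists, with the list median as a black bar and the median of all tested genes as a dashed line. The bar of the 41 repair genes (-0.93) lies beside that of S phase (-0.85), left of the other repair lists (-0.55 to -0.19) and right of mitosis (-2.12).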

How the data were processed

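Poly(A) RNA of 4 H226 cultures (2 shp63 and 2 shControl) was sequenced from stranded libraries. Per the series' design text and the submitters' processing notes, the authors aligned reads with TopHat2 2.0.13 to GRCh37 (hg19) and counted them per gene with HTSeq 0.6.1. The gene annotation and strand setting are not given in the sources used here. The deposited values are unnormalized read counts per gene symbol, and column names assigned libraries to samples.

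The main test was edgeR 4.0.16 under R 4.3.3 (TMM scaling, filterByExpr with a minimum count of 10 and total of 15, robust quasi-likelihood fit with group as the only term). The filter kept 14901 of 25369 genes, and p-values were adjusted over all of them (Benjamini-Hochberg). CPM use the TMM factors. The SE of a log2 fold change is its size over the square root of its F statistic, and the SE of a ratio change combines both genes' SEs. The fit was also run on counts simulated from the shControl means and its own estimate of spread, which cannot show whether that spread is right. P-values cover the spread between the 2 cultures of a group only.

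The members, lists and pairs were chosen with earlier results of these data known. The rule for values in full took, in each role, the genes of largest and smallest absolute change, the 8 largest changes, genes not called lower, and BRCA1, BRCA2, FANCD2, FANCI, ATM, ATR and CHEK1. Other lists gave up to 2 genes of smallest adjusted p per direction. RMI2, BARD1 and the other members given by fold alone complete their role. Loci and transcripts are from GENCODE release 44 lifted to GRCh37, and promoters from RefSeq. DESeq2 1.42.0 and limma 3.58.1 (voom) were alternatives. Some genes of the other lists are not reported here by name.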

Additional observations from a re-analysis of the deposited data

How the results depend on the processing

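The 39 falls, the 1 rise and the median were recomputed under 13 alternatives. The count of genes lower in shp63 was 39 or 40 under every alternative but the test against 1.5-fold, which gave 29. With library totals as the only scaling the median log2 fold change was -1.02, and 0 genes were called higher. The count called higher was also 0 under DESeq2 and under the test against 1.5-fold, which called 3385 of all tested genes against 11033. Leaving out 1 library at a time gave 39 to 40 genes lower, 0 to 1 higher, a median of -1.003 to -0.92 and 10353 to 10548 genes called in all. The count of 0 came without shControl replicate 1, where only the rise of FANCF was at stake. NBN, not called, had a log2 fold change of 0.0012 without shp63 replicate 1 and was called lower without shp63 replicate 2 (-0.11). In each such fit the lone library was assumed to vary like the other group. The cause of these shifts was not tested.

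The labels tie same-numbered libraries by number only and do not say whether they were handled together. The deviations of same-numbered libraries correlated at -0.24 across genes. With the replicate number as a block 39 genes were lower, 1 was higher and 10858 of all genes were called. With the numbers crossed, an alternative chosen after seeing the data, 39 were lower, 1 was higher and 11387 of all genes were called. Depth limits FANCB most, with 97 reads in its lowest library.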
